A study of Mus musculus with 12 samples.

Results

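The nuclear genes for the subunits of the 5 oxidative phosphorylation complexes were described in sorted dorsal root ganglion neurons of mice. Members were the protein-coding rows of the deposited count tables whose Ensembl identifier mapped to a symbol beginning with Nduf and a subunit letter and number (complex I), to Sdha, Sdhb, Sdhc or Sdhd (complex II), or to a symbol beginning with Uqcr (complex III), with Cox and a number from 4 to 8 and a letter (complex IV) or with Atp5 (complex V). Assembly factors of the Ndufaf series and 10 pseudogene rows were left out. This gave 84 genes of the 41388 in the table: 37 of complex I, 4 of complex II, 8 of complex III, 18 of complex IV and 17 of complex V. Of the 84, 78 passed the filter on low counts and were tested. The other 6 (Ndufa4l2, Cox6a2, Cox7b2, Cox8b, Cox8c and Atp5g2) did not pass it.

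Complexes I to IV pass electrons from NADH and succinate to oxygen in the inner mitochondrial membrane, and complexes I, III and IV pump protons as they do so. Complex V, the ATP synthase, uses the proton gradient to make ATP. Most subunits are encoded in the nucleus and imported, while a few core subunits of complexes I, III, IV and V are encoded in mitochondrial DNA. Sensory neurons depend on this pathway to supply ion pumping and transport along long axons.

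The 12 libraries were bulk RNA-seq of EGFP-sorted cells from C57BL/6 mice aged 3 months. All groups carried a floxed Ret allele that expresses EGFP from the Ret locus after Cre has acted, as heterozygous knock-in, together with Cre at the locus of the sodium channel NaV1.8 (Scn10a<tm2(cre)Jnw>), so the controls of each comparison carried both alleles too. The sorted cells are thus neurons with a history of NaV1.8 expression and an active Ret locus. The genotype field of 4 libraries (male L6S1 C, female L345 D and both female L6S1 B and C), which also have the later accession numbers, names only one of the alleles. Each library pooled 12 to 32 ganglia of 2 to 8 mice, either from lumbar levels L3, L4 and L5 (L345) or from L6 and S1 (L6S1). There were 3 libraries each of male L345, female L345, male L6S1 and female L6S1, named below by the letters of their labels. No source says whether L345 and L6S1 pools shared mice. In bulk RNA, fewer cells of a type and less RNA per cell cannot be told apart.

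Total counts were 16176436 to 26694404 per library, and 3 counts corresponded to 0.112 to 0.185 CPM (counts scaled to the library size). This floor covers counting error only. The summed level of 8 markers of C-fibre sensory neurons was 11800 to 12900 CPM in L345 and 12000 to 17200 CPM in L6S1. The higher sum came mostly from Calca (mean 6140 and 8140 CPM) and Tac1 (2350 and 3520 CPM), and Trpv1 (543 and 779 CPM) was also higher. Lower means in L6S1 were those of Scn10a (573 and 429 CPM), Scn11a (671 and 492 CPM), Mrgprd (556 and 472 CPM), Prph (1240 and 1200 CPM) and Ret (176 and 165 CPM). The median log2 fold change of the 8 was -0.07. By the edgeR test described below, 2 of the 8 were called higher in L6S1 and 0 lower, where 1.45% of all tested genes were called higher. Levels are given in CPM scaled by TMM (trimmed mean of M values) between libraries of one gene, and in RPKM (CPM divided by the length of the gene in kilobases) between genes. Female L6S1 B and C stood apart from the other 10 libraries: of the 9965 tested genes that averaged 5 CPM or more, 284 in B and 190 in C lay more than 4-fold below the median of the other 4 female libraries. In each of the other 10 libraries, 0 to 7 genes lay as far below the other libraries of the same sex, leaving B and C out of the reference. The called members, and those named for sex and for its interaction with level, are therefore also given without B and C.

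Promoter sequence of 68 of the 84 members was found in RefSeq (GRCm38.p6; 73 windows, each from 250 bases before to 50 bases after a gene start). Motifs for factors known from background to act at nuclear genes of the respiratory chain were searched on both strands. Matches of different motifs that overlap were counted for each. The 8 letters CGCATGCG at the centre of the NRF1 motif lay in 9 of 73 member windows (12.3%), against 1.87% of all 32851 windows and 2.52% of 21263 windows of protein-coding genes. The ETS letters CCGGAAG, bound by GABPA (also called NRF2), lay in 21.9% of member windows, against 8.86% of all windows and 11.6% of coding ones. The YY1 letters AAGATGGCG lay in 9.59% of member windows, against 1.4% of all windows and 1.83% of coding ones. The GC box GGGCGG was in 39.7% of member windows, 35.7% of all windows and 46.2% of coding ones, CCAAT in 42.5%, 37.4% and 38.2%, and TATAAA in 11.0%, 13.6% and 12.6%. A match describes these letters and is not evidence of binding. The stretches below end at or before the gene start and are shown because they hold the NRF1 letters (Ndufa11, Cox6a1, Atp5k) or the ETS letters on the opposite strand (Sdhd, Cox6b1), marked in capitals. The marked letters begin at -59 in Ndufa11, -161 in Cox6a1, -49 in Atp5k, -46 in Sdhd and -28 in Cox6b1, counted from the start site.
Ndufa11 (chr17:56717663-56717750, plus strand): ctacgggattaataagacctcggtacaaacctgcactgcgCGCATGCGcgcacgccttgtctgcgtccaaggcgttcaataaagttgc
Cox6a1 (chr5:115349072-115349159, minus strand): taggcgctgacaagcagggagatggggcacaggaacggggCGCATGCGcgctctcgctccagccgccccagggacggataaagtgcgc
Atp5k (chr5:108434401-108434488, minus strand): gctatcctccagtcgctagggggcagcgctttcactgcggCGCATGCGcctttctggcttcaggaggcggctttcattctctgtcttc
Sdhd (chr9:50603850-50603935, minus strand): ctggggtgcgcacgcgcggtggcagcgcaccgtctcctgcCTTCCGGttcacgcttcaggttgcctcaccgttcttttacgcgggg
Cox6b1 (chr7:30626115-30626182, minus strand): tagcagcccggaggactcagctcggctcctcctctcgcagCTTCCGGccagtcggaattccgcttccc

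The YY1 letters were in the windows of 7 members. In the 6 shown next they lay shortly after the start site, at +23 to +36 on the strand of the gene, and include an ATG. These short windows, with the motif in capitals, are given because the match had nearly the same place in 5 members of complex I and in the complex V gene Atp5j2.
Ndufa9 (chr6:126849097-126849125, minus strand): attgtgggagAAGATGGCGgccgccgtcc
Ndufc1 (chr3:51408915-51408943, minus strand): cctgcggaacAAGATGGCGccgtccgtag
Ndufs4 (chr13:114388045-114388069, minus strand): tgcctacaggAAGATGGCGgcggtc
Ndufs6 (chr13:73328433-73328459, minus strand): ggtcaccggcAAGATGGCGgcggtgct
Ndufs7 (chr10:80249463-80249491, plus strand): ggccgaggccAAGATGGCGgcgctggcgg
Atp5j2 (chr5:145191500-145191528, minus strand): ccaggacttcAAGATGGCGtcactcggtg

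The levels of the 84 genes spanned from no count to 1590 RPKM. Among the 78 tested members the median of the mean RPKM was 152, against 3.21 for all tested genes. In complex I the most abundant transcript per length was Ndufa4 (1590 ± 404 RPKM, SD over 12 libraries), a small subunit named for complex I that is now assigned to complex IV. In complex II Sdhd, a membrane anchor, was highest at 245 ± 71.0 RPKM and Sdhc, the other anchor, lowest at 41.6 ± 14.1 RPKM. In complex III Uqcr10, a small subunit, was highest (400 ± 117 RPKM) and Uqcrfs1, the Rieske iron-sulfur protein, lowest (99.7 ± 37.7 RPKM). Complex III had the narrowest spread between tested genes, with an SD of 0.68 in log2 RPKM, against 1.19 to 3.48 in the other complexes. Cox6b1 led complex IV at 759 ± 168 RPKM, and Atp5mpl, a small subunit of the ATP synthase, led complex V at 649 ± 126 RPKM. The gene length in RPKM was that of the deposited tables, which can differ much from the length of a transcript. It was 4912 against 596 bases in Atp5g1, 1831 against 405 in Uqcrq, 1550 against 745 in Cox4i1 and 505 against 618 in Cox6b1. The order of genes by RPKM depends on this choice of length.

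**Figure D1:**
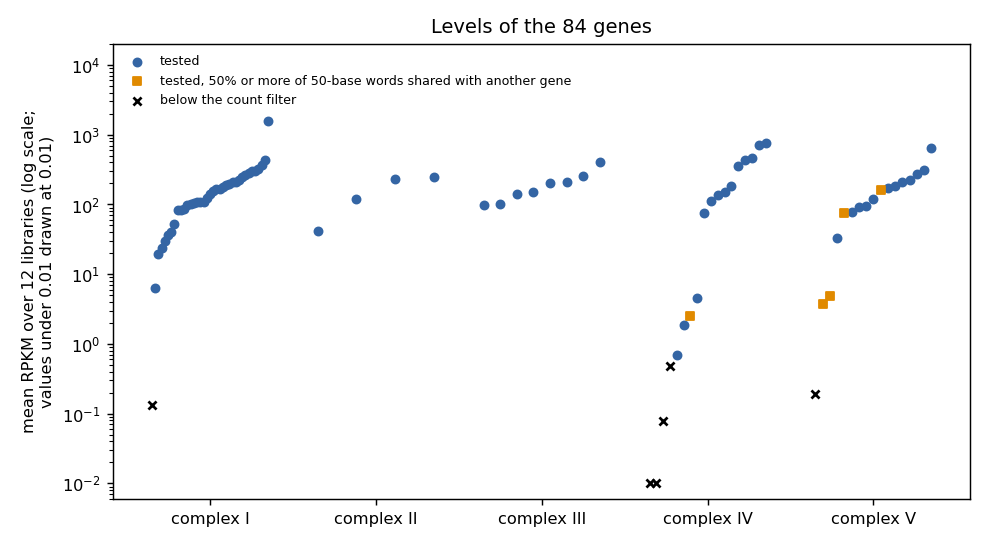
Mean level of each of the 84 genes over 12 libraries, in RPKM on a log scale, by complex. Most tested members (circles) lie between 10 and 1000 RPKM; squares mark tested members that share 50% or more of their 50-base words with another gene, and crosses mark the 6 members below the filter on low counts.

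Where complexes IV and I have alternative isoforms, the widely expressed form was the abundant one. Cox4i1 was at 457 RPKM and Cox4i2, a form induced by low oxygen in other tissues, at 1.84 RPKM, or 0.402% of it. Cox6a1 was at 720 RPKM and its heart and muscle form Cox6a2 at 0.0775 RPKM (0.0108%), with 0 to 4 counts in each library. Cox7a2 was at 438 RPKM, the related Cox7a2l at 111 RPKM, and the heart and muscle form Cox7a1 at 4.56 RPKM (1.04% of Cox7a2). Cox8a was at 358 RPKM, while the muscle form Cox8b had 0 counts in all 12 libraries, which allows up to 0.112 to 0.185 CPM, and Cox8c had 1 count in 1 library. Cox6b1 exceeded the testis form Cox6b2 (0.699 RPKM, 0.0921%), and Cox7b exceeded Cox7b2 (153 and 0.487 RPKM). Ndufa4 exceeded Ndufa4l2, which low oxygen is known to induce, at 0.135 RPKM. Isoform levels were a description over the same 12 libraries and were not tested against each other.

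Some levels are uncertain because the transcripts share sequence with other genes, in part near-identical copies. In 6 members at least 50% of the 50-base words of the transcript also occurred in transcripts of other genes: Atp5g2 (100%), Atp5l (84.8%), Atp5g1 (66.0%), Cox7c (53.0%), Atp5h (50.5%) and Atp5o (50.3%). Among tested members, the 5 of this kind had a median level of 4.88 RPKM and the other 73 a median of 156 RPKM. Atp5g1, Atp5l and Cox7c were low (3.74, 4.88 and 2.53 RPKM), whereas Atp5h (75.0 RPKM) and Atp5o (161 RPKM) were not. The genes that share words with Atp5o include a second entry of the same name. Copies of the low genes were low in the table as well: the processed pseudogene Gm10039, a copy of Atp5g1, was at 2.98 CPM, and the copies of Cox7c were at 0.00703 to 1.08 CPM. Of the 3 genes for the c-ring of the ATP synthase, Atp5g3 was at 173 RPKM, Atp5g1 at 3.74 RPKM and Atp5g2 at 0.194 RPKM, an order that the shared words make uncertain. The treatment of reads with several matches is not stated in these sources.

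The main comparison was of L6S1 with L345, averaging both sexes. Of the 78 tested members, 5 were higher in L6S1 and none lower, by edgeR's quasi-likelihood test at a Benjamini-Hochberg adjusted p under 0.05 over all 15281 genes tested. In the same comparison 2.33% of all tested genes were called, 1.45% as higher and 0.877% as lower. The called genes were Sdhc and Sdhd of complex II, Ndufa9 and Ndufs8 of complex I and Cox7a1 of complex IV. The other 73 members did not pass. The log2 fold changes of the members had a median of 0.36, against -0.06 over all tested genes, and 70 of 78 were above 0, against 44.5% of all tested genes. At an unadjusted p under 0.05 there were 49 members, where 26.6% of all tested genes passed. By complex, the medians were 0.39 (I), 0.57 (II), 0.36 (III), 0.39 (IV) and 0.32 (V).

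**Figure D2:**
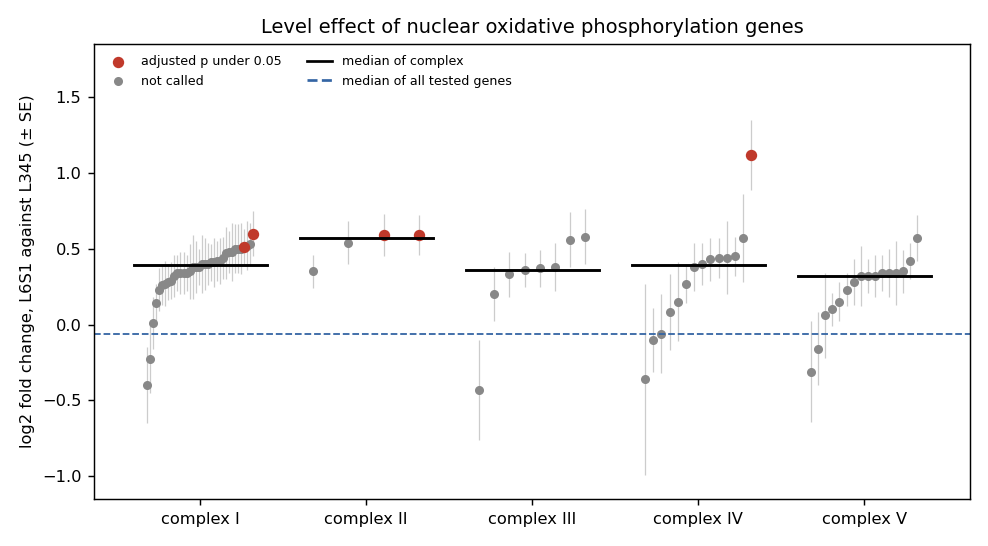
Log2 fold change of L6S1 against L345 (± SE) for each tested member, by complex; larger red points were called, black lines are medians and the dashed line is the median of all tested genes. All 5 medians, 0.32 to 0.57, lie above the -0.06 of all tested genes, and single members of complexes I, III, IV and V fall below it.

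Neither the calls nor the size of the shift was independent of single libraries. Without female L6S1 B and C no member was called by edgeR, where 0.699% of all genes were called higher, while the median was 0.23 with 77 of 78 members above 0, and the complex medians were 0.17 to 0.31. With the later accessions as a term in the model no member was called by edgeR (0.615% of all genes were called higher), and the median was 0.25. Leaving out 1 library at a time gave 0 to 46 calls: 46 without female L6S1 A (42 higher and 4 lower, where 11.1% of all genes were called higher and 14.6% lower), 35 without female L345 D (3.24% of all genes called higher), and 0 or 1 without each of the other 10. The medians over those 12 fits were 0.31 to 0.46. DESeq2 called 25 members, where it called 6.77% of all tested genes higher, and limma-voom with sample weights called 57 higher and 2 lower, where it called 9.83% of all genes higher and 11.6% lower.

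The library values show this. The members took 1.51% to 1.82% of all counts in L345, apart from 2.09% in female L345 D, and 1.89% to 2.29% in L6S1. The median deviation of the members from their own means was -0.38 to 0.03 (log2) in L345, except 0.21 in female L345 D, and -0.02 to 0.45 in L6S1, where it was lowest in female L6S1 A. Female L345 D thus lay within the range of the L6S1 libraries, and male L345 B (0.03) lay close to female L6S1 A (-0.02) and male L6S1 B (0.05). Female L345 D was also the only L345 library among the later libraries, beside male L6S1 C and female L6S1 B and C. Deviations were 0.21, 0.24, 0.38 and 0.45 in these, in that order, and -0.38 to 0.23 in the earlier 8 libraries. The later libraries were thus unevenly spread over the levels. Of the 78 tested members, 38 had their highest value in female L6S1 C and 38 their lowest in female L345 C. Female L6S1 B held the highest value of 17 members and the lowest of 13. Markers of other cells also differed: the 5 fibroblast markers summed to 68.1 to 93.1 CPM in L345 and 122 to 311 CPM in L6S1, mostly from Dcn (mean 64.3 and 213 CPM), whereas Col1a2 (6.96 and 7.87 CPM) and Pdgfra (1.73 and 1.44 CPM) had similar means and 1 of the 5 was called. The 6 markers of macrophages and leukocytes summed to 3.54 to 4.39 CPM and 6.99 to 180 CPM, the highest in female L6S1 C, with C1qa at 0 in all L345 libraries. The 5 satellite glia markers summed to 625 and 716 CPM in female L6S1 B and C and to 1140 to 1720 CPM in the other 10 libraries. Most of this sum was Apoe (mean 1040 CPM in L345 and 848 CPM in L6S1), whereas Fabp7 had a higher mean in L6S1 (157 and 227 CPM). The 5 Schwann cell markers, mostly Pmp22 (2420 and 2980 CPM), summed to 4030 and 3760 CPM in female L6S1 B and C. In the other 10 libraries they summed to 2550 to 3070 CPM. The part of these cells in the members' values was not tested.

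**Figure D3:**
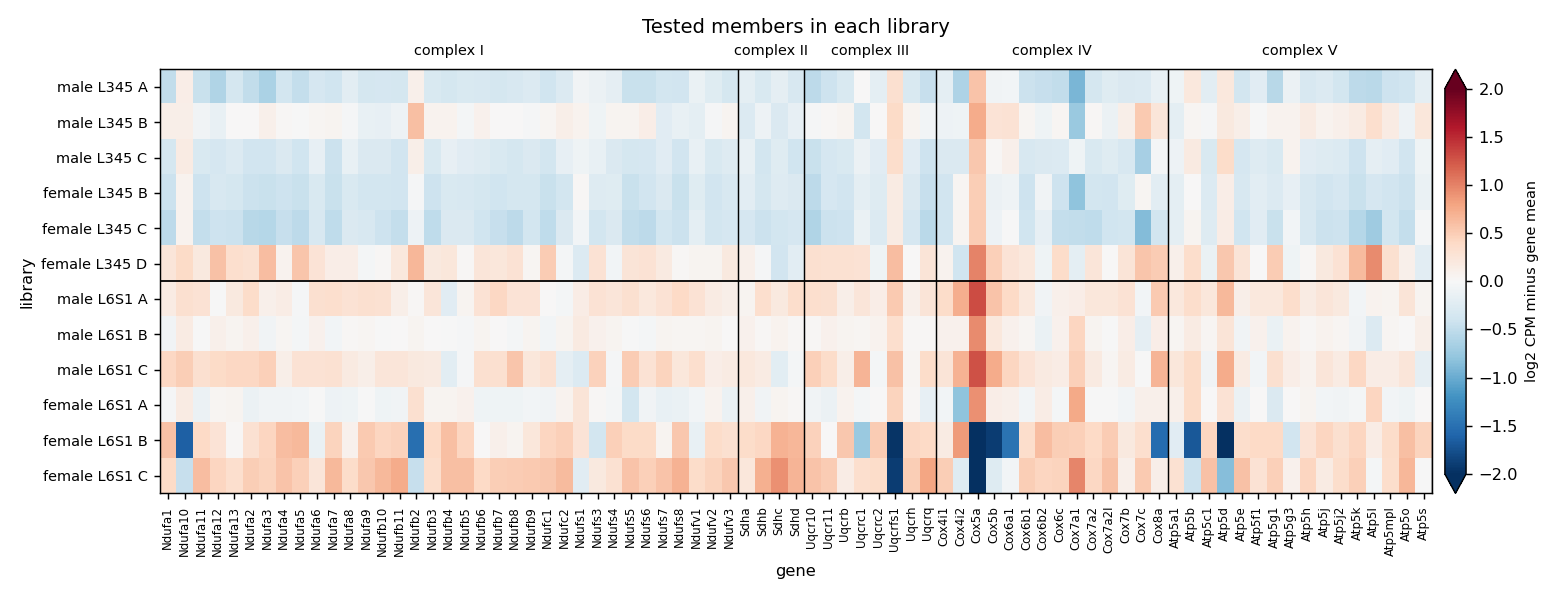
Log2 CPM of tested members minus the mean of each gene over 12 libraries, with genes in columns by complex and libraries in rows (L345 above the line, L6S1 below it). Most members are low in 4 of the 6 L345 libraries, male L345 B lies near the means, female L345 D resembles the L6S1 rows, and a few members such as Cox5a and Uqcrfs1 are dark blue in female L6S1 B and C.

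Transcript length moved with the shift. The members' transcripts are short, with a median of 752 bases against 2720 bases for all tested genes, and fold changes fell with length over all 15193 tested genes with a transcript (Spearman rho -0.42, and -0.20 over the 78 members, a description across genes that do not vary independently). Among transcripts of over 500 and up to 1000 bases the median fold change was 0.38 for 41 members and 0.27 for 1128 other genes, and among those of over 1000 and up to 1500 bases it was 0.38 for 13 members and 0.21 for 1675 others. Up to 500 bases it was 0.41 for 10 members and 0.21 for 331 others, from 1500 to 2000 bases 0.32 for 9 members and 0.10 for 1827 others, and from 2000 to 3000 bases 0.18 for 4 members and -0.02 for 3500 others. With offsets for length and GC content fitted in each library, the median of the members was 0.13, 62 of 78 were above 0, and 4 were called higher (Cox7a1, Ndufs7, Sdhc and Sdhd), where 2.24% of all genes were. The complex medians were then 0.17 (I), 0.33 (II), 0.16 (III), 0.10 (IV) and 0.06 (V). The offsets took length and GC content together and were fitted over all tested genes with a transcript, members included. Both sets of values therefore do not separate the part of transcript length, which was not tested.

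**Figure D4:**
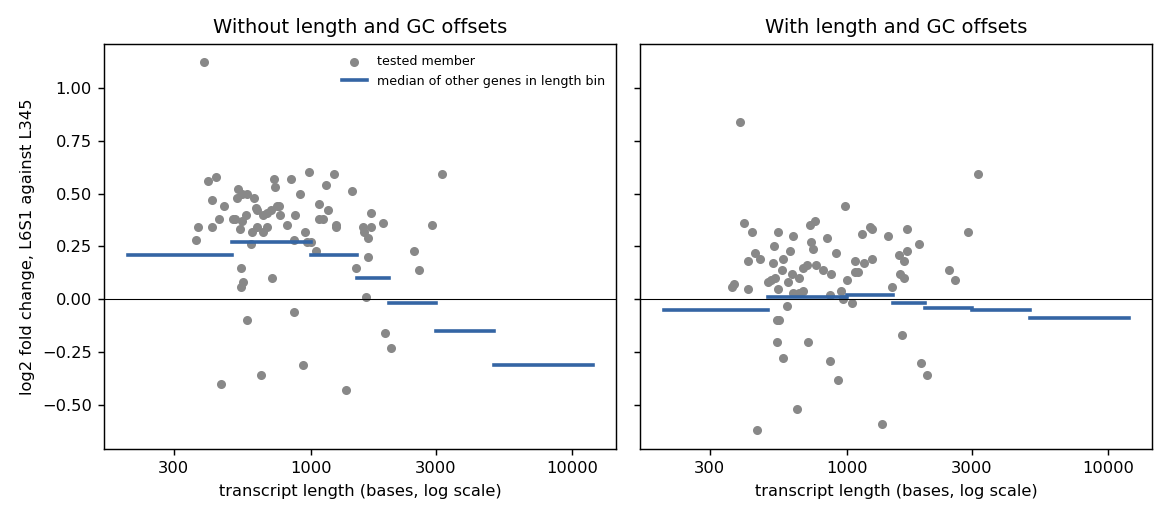
Log2 fold change of each tested member (points) against transcript length on a log scale, without (left) and with (right) offsets for length and GC content; blue bars are medians of other genes by length. On the left the bars fall from 0.27 at 500 to 1000 bases to -0.31 above 5000 bases, and on the right they stay between -0.09 and 0.02.

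Complex II, succinate dehydrogenase, which links the citric acid cycle to the chain, had 2 called genes of 4. Sdhd (chr9:50596338-50603849) had 232, 246 and 272 CPM as lowest, median and highest of the 6 L345 libraries and 297, 350 and 489 CPM in the 6 L6S1 libraries. The groups did not overlap, which held in the higher direction for 2.02% of all tested genes, and the highest L6S1 values were those of female B and C. The log2 fold change was 0.59 ± 0.13 (SE; edgeR adjusted p = 0.0346), and 0.35 (edgeR adjusted p = 0.189) without female L6S1 B and C. Sdhc (chr1:171127165-171150603) had 98.9, 107 and 115 CPM in L345 and 112, 142 and 244 CPM in L6S1, with an overlap through male L6S1 C. Its log2 fold change was 0.59 ± 0.14 (edgeR adjusted p = 0.0397), and 0.32 (edgeR adjusted p = 0.223) without those libraries. Sdhb, the iron-sulfur subunit, had 377, 406 and 500 CPM in L345 and 487, 608 and 831 CPM in L6S1, and Sdha, the flavoprotein that oxidises succinate, 366, 401 and 498 CPM against 481, 517 and 599 CPM. Neither passed the test (0.54 ± 0.14, edgeR adjusted p = 0.0545, for Sdhb and 0.35 ± 0.11, edgeR adjusted p = 0.0824, for Sdha), although all 6 L6S1 libraries exceeded the L345 mean of their sex in each of the 4 genes.

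In complex I, 2 of 36 tested members were called. Ndufs8 (chr19:3908870-3912717), a core subunit with iron-sulfur clusters, had 223, 233 and 307 CPM as lowest, median and highest in L345 and 277, 375 and 487 CPM in L6S1, for a difference of 0.60 ± 0.15 on the log2 scale (edgeR adjusted p = 0.0484). The overlap came from female L345 D at 307 CPM and female L6S1 A at 277 CPM. Ndufa9 (chr6:126821863-126849144), an accessory subunit near the quinone site, had 297, 312 and 376 CPM in L345 and 381, 447 and 557 CPM in L6S1, without overlap (0.51 ± 0.12, edgeR adjusted p = 0.0472). Without female L6S1 B and C these were 0.33 for Ndufs8 and 0.31 for Ndufa9 (edgeR adjusted p = 0.267 and 0.232). Among nuclear core subunits of the complex, Ndufs8 passed the test, while these did not: Ndufs7 was at 0.44 ± 0.14, Ndufv2 at 0.41 ± 0.12, Ndufv1 at 0.29 ± 0.12, Ndufs3 at 0.23 ± 0.14 and Ndufs1 at 0.14 ± 0.13 (log2 fold change ± SE, edgeR adjusted p from 0.0727 to 0.493). Ndufb2, an accessory subunit, had the lowest value of the complex at -0.40 ± 0.25 (edgeR adjusted p = 0.308).

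Complex IV, cytochrome c oxidase, had 1 called gene of 14 tested. Cox7a1 (chr7:30184171-30186028) had 0.755, 0.959 and 1.41 CPM as lowest, median and highest in L345 and 1.67, 2.14 and 3.06 CPM in L6S1, from 16 to 35 and from 42 to 73 counts. The groups did not overlap, and its log2 fold change of 1.12 ± 0.23 (edgeR adjusted p = 0.0235) was the highest of all members. Without female L6S1 B and C it was 1.12 (edgeR adjusted p = 0.0607). Leaving out single libraries ended the call in 6 of 12 fits, namely without male L345 A, male L345 B, female L345 B, female L345 C, male L6S1 B or male L6S1 C (edgeR adjusted p up to 0.0833). Other muscle and brown fat genes were measured beside it. The 5 striated muscle markers summed to 1.72 to 3.86 CPM in L345 and 3.39 to 5.77 CPM in L6S1, of which Acta1 made up 2.30 and 4.41 CPM on average and was called higher, while Ckm, Tnnt3, Myh4 and Mb were at 0 to 0.339 CPM in every library. The 2 brown fat markers summed to 3.09 to 5.51 CPM and 8.18 to 12.5 CPM, nearly all from Cidea, and Ucp1 was at 0 to 0.0781 CPM. The part of such cells in the Cox7a1 result was not tested.

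**Figure D5:**
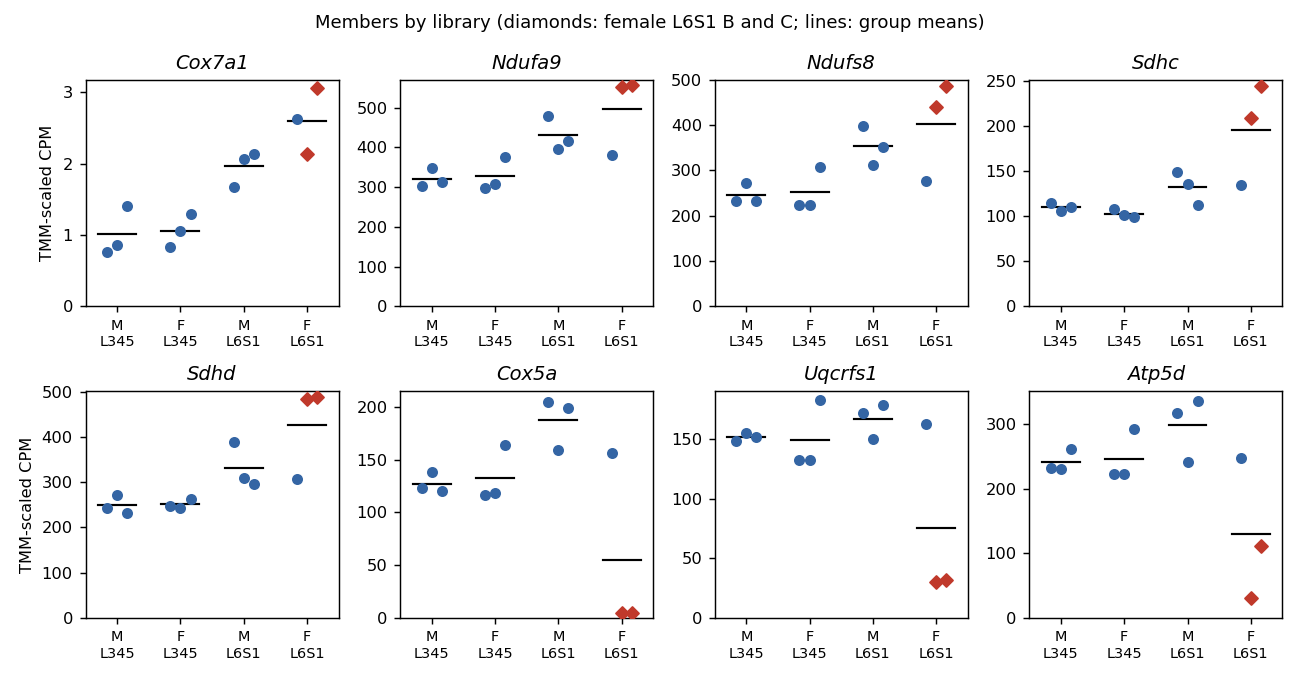
TMM-scaled CPM of the 5 called members and of Cox5a, Uqcrfs1 and Atp5d in each library, by sex (M, F) and level; diamonds are female L6S1 B and C and black lines are group means. The diamonds are at the top for Sdhc, Sdhd, Ndufa9 and Ndufs8 and at the bottom for Cox5a (4.78 and 4.44 CPM), Uqcrfs1 and Atp5d.

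Several members went the other way in female L6S1 B and C alone. Cox5a (chr9:57521232-57532424), a nuclear subunit of cytochrome c oxidase, had 116 to 164 CPM in the 6 L345 libraries and 156 to 205 CPM in male L6S1 A, B and C and female L6S1 A, but 4.78 CPM in female L6S1 B and 4.44 CPM in female L6S1 C. Relative to the median of the other 4 female libraries (136 CPM) these were -4.80 and -4.91 on the log2 scale. Cox5a was 1 of 3 among 9965 genes to lie more than 16-fold below in both libraries (0.0301%). Uqcrfs1 (chr13:30540308-30545362), the Rieske protein that passes electrons to cytochrome c1, had 30.4 and 31.8 CPM there against 133 to 183 CPM in the other 10 libraries. Atp5d, the delta subunit of the ATP synthase, had 31.3 CPM in B and 111 CPM in C, against 222 to 336 CPM elsewhere. Of 73 members with a mean of at least 5 CPM, these 3 lay more than 2-fold below in both libraries (4.11%), against 5.92% of the 9965 genes. At this threshold the share does not set the members apart. More than 4-fold below in both libraries were 2 members, Cox5a and Uqcrfs1 (2.74%), against 0.973% of the 9965 genes.

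In female L6S1 B alone or with C, 10 of the 73 members lay more than 2-fold below (13.7%), the same share as among the 9965 genes (1361, or 13.7%). Those low in B only included Cox5b, Atp5b, Ndufa10, Ndufb2, Cox6a1 and Cox8a, at -1.92 to -1.48 (log2). Atp5b, the catalytic beta subunit, had 254 CPM in B and 616 CPM in C, against 832 to 1080 CPM in the other 10 libraries, and its partner Atp5a1 had 842 and 1220 CPM there. No member lay more than 2-fold above in both libraries, while 42 of the 9965 genes did (0.421%). Because of B and C the level fold change of Cox5a was -0.36 ± 0.63 (edgeR adjusted p = 0.730), and without them it was 0.39 (edgeR adjusted p = 0.210). Those of Uqcrfs1 and Atp5d were -0.43 ± 0.33 and -0.31 ± 0.33 (edgeR adjusted p = 0.409 and 0.552), and 0.12 and 0.15 without B and C. Outside the members, Cyc1, which encodes cytochrome c1 of complex III, had 16.6 and 21.0 CPM in B and C against 82.2 to 167 CPM elsewhere, and Ndufab1, the mitochondrial acyl carrier protein, 4.48 CPM in each against 24.0 to 40.6 CPM elsewhere. The members with such values were named after they were seen, and why those transcripts are low was not tested.

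No member of complexes III and V was called. Uqcr10 had the highest fold change of complex III (0.58 ± 0.18, edgeR adjusted p = 0.0829), with 147, 160 and 279 CPM as lowest, median and highest in L345 and 214, 296 and 334 CPM in L6S1. Atp5o, the stalk subunit that confers oligomycin sensitivity, had the highest of complex V (0.57 ± 0.15, edgeR adjusted p = 0.0579), with 252, 268 and 375 CPM and 331, 417 and 558 CPM, subject to the shared words given above. In both genes the highest L345 value was that of female L345 D.

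Within each sex no member was called by edgeR, where 0.222% of all genes were called in males and 0.36% in females. At an unadjusted p under 0.05 there were 18 members in males (8.83% of all genes) and 32 in females (24.0% of all genes). DESeq2 called 11 members higher in females, where it called 3.6% of all genes higher, and limma-voom called 42 higher in males, where it called 6.31% of all genes higher. The medians were 0.34 in males (75 of 78 above 0) and 0.39 in females (67 of 78 above 0). The lowest value in males was -0.19, and in females it was -1.28, that of Cox5a.

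Between the sexes no member was called, where edgeR called 0.0589% of all genes, and none had an unadjusted p under 0.05, where 5.96% of all genes did. The median was 0.08. The smallest p belonged to Ndufb4, with 17.8 to 33.5 CPM in females and 17.2 to 23.1 CPM in males (0.32 ± 0.15, edgeR adjusted p = 0.764), and to Cox5b, with 19.3 to 100 CPM and 68.8 to 121 CPM (-0.48 ± 0.26, edgeR adjusted p = 0.764). Without female L6S1 B and C these values were 0.13 ± 0.15 and -0.18 ± 0.16 (edgeR adjusted p = 1.0 for both). The level effect did not pass a test of difference between the sexes in any member, and 0.0% of all genes did so by edgeR. The unadjusted p was under 0.05 for 2 members, where it was for 4.67% of all genes: Sdhc (0.26 ± 0.20 in males and 0.93 ± 0.20 in females, interaction 0.67 ± 0.28, edgeR adjusted p = 0.871) and Ndufc2, an accessory subunit of complex I (0.04 ± 0.18 and 0.64 ± 0.18, interaction 0.60 ± 0.25, edgeR adjusted p = 0.871). Without female L6S1 B and C, which leaves 1 female L6S1 library whose spread is taken from the other groups, the interactions were 0.13 ± 0.22 for Sdhc and 0.26 ± 0.23 for Ndufc2 (edgeR adjusted p = 0.966 and 0.949).

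Lists of related genes were counted in the same fit. Of 17 glycolysis genes, 2 were called higher: Ldhb, a lactate dehydrogenase subunit, with 87.9 to 122 CPM in L345 and 122 to 211 CPM in L6S1 (0.64 ± 0.12, edgeR adjusted p = 0.0157), and the enolase Eno1, with 293 to 358 CPM and 413 to 683 CPM (0.54 ± 0.13, edgeR adjusted p = 0.0386). The median of the 17 was 0.37, with 15 above 0, beside 1.45% of all tested genes called higher. Without female L6S1 B and C none of the 17 was called and the median was 0.25, with 0.51 for Ldhb (edgeR adjusted p = 0.054) and 0.35 for Eno1 (edgeR adjusted p = 0.141). Leaving out 1 library gave 10 calls without female L6S1 A, 4 without female L345 D, 0 without female L345 B, male L345 A, male L345 C or male L6S1 A, and 1 without each of the other 6. No gene was called by edgeR among 13 of the citric acid cycle (median 0.28), 46 assembly factors (0.22), 75 mitochondrial ribosomal proteins (0.29), 19 import factors (0.29) and 14 regulators of mitochondrial biogenesis (-0.19). DESeq2 called 4, 8, 20, 6 and 0 of these higher, in that order, and 1 assembly factor lower. It called 9 glycolysis genes and 6.77% of all tested genes higher. With the offsets for length and GC content the medians were 0.18, 0.05, 0.12, 0.08 and -0.02, and 0.28 for glycolysis. Yy1, Gabpa and Nrf1, whose letters were searched in the promoters, did not share a direction. Yy1 was at 10.3 to 15.1 CPM in L345 and 6.99 to 10.1 CPM in L6S1 (-0.44 ± 0.15, edgeR adjusted p = 0.104). Gabpa was at 15.8 to 24.1 CPM and 13.7 to 19.4 CPM (-0.30 ± 0.15, edgeR adjusted p = 0.205). Nrf1 was at 14.4 to 23.8 CPM and 17.4 to 27.8 CPM (0.21 ± 0.15, edgeR adjusted p = 0.373). Of the 13 subunits encoded in mitochondrial DNA, 8 were tested and none was called (median -0.09). The others, mt-Co2, mt-Co3, mt-Atp6, mt-Atp8 and mt-Nd4l, were at 0 to 0.101 CPM in every library. Among the 8, mt-Nd3 was at 0 to 1.05 CPM, whereas mt-Co1 was at 1800 to 4030 CPM. The treatment of reads with several matches is not stated, so these low values do not show that the transcripts are absent. Why they are low was not tested.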

How the data were processed

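RNA of EGFP-sorted dorsal root ganglion neurons was measured in 12 libraries of 4 groups (3 each). Per the labels' protocols, 10 ng of RNA was amplified with a SMARTer kit and libraries had 12 PCR cycles, without molecular identifiers. Per the submitters' processing notes, the tools were Subread and featureCounts 1.4.5 on genome build GRCm38.p2. These sources do not state the strand setting or the treatment of reads with several matches, so reads of a gene and of an overlapping antisense gene cannot be told apart. The authors deposited whole-number counts for 41388 genes per library. The authors also deposited CPM and RPKM, which were not tested. Symbols came from GENCODE M21 (40340 genes, 97.5%), which is on the same assembly. Coordinates are those of the deposited tables on GRCm38.p2, and promoters those of RefSeq GRCm38.p6.

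Counts were tested with edgeR 4.0.16 (R 4.3.3): filterByExpr by group, TMM, and a robust quasi-likelihood fit of 4 group means with 8 residual degrees of freedom (15281 genes tested, common biological coefficient of variation 0.239). The fit was tested on simulated data. Alternatives used limma 3.58.1 (voom), DESeq2 1.42.0, other filters and scaling, offsets for GC content and length (splines with 4 degrees of freedom, fitted on 1 representative transcript per gene), the later accessions as a term, the earlier 8 libraries alone, a replicate block, and fits without libraries. CPM in the text was recomputed from counts with TMM. Replicates are separate pools per the labels, so p-values measure the spread between pools. The labels disagree on the number of mice in male L345 C (5 or 3). No libraries held identical counts.

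The members and gene lists were chosen with earlier results of these data known. Named genes were the called members, the highest and lowest of each complex by fold change and by RPKM, all of complex II, the isoform sets, core subunits of complex I, those with the 2 smallest p for sex and interaction, and up to 3 called genes of each other list. The members low in female L6S1 B and C, further isoform copies, and the regulators Yy1, Gabpa and Nrf1 were added after their values were seen. The promoter motifs were chosen from background knowledge, and the NRF1 letters were shortened after a first search with a longer form. One item is not reported here.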

Additional observations from a re-analysis of the deposited data

How the results depend on the processing

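The number of members called for the level effect (5) became 25 with DESeq2, 59 with limma-voom, 15 with no filter on low counts (1.77% of all genes called higher), 34 with the replicate block (4.13%) and 0 with the later libraries as a term. It was 0 to 46 when 1 library was left out. The median of the members was 0.31 in the earlier 8 libraries alone and 0.23 without female L6S1 B and C, fits that leave 1 female L6S1 library. In males limma-voom called 42. In females DESeq2 called 11, no filter 2 (0.51% of all genes called higher) and the offsets for GC content and length 1 (0.497%). Without 1 library the counts were 0 to 35 in females, 0 to 3 for sex and 0 to 5 for the interaction, the highest in each case without female L6S1 A, where 24.5%, 6.32% and 5.21% of all genes were called in either direction (10.4% as higher in females). The cause was not tested. Cox5a reversed to 0.45 in the earlier 8 libraries alone, which lack female L6S1 B and C. The median of the members stayed between 0.13 and 0.48 in every alternative. Ndufa9, Ndufs8, Sdhc and Sdhd lost their calls in 10 of 12 fits without 1 library, all but the fits that left out female L6S1 A or female L345 D. Whether the replicate letters pair the libraries was not settled. Deviations of libraries with the same letter correlated at 0.0183 to 0.233, with 4 of 5 pairs under the 0.1 required for pairing. In males the same letters gave 0.0515 to 0.0927 and different letters -0.106 to 0.0337. In females different letters gave -0.3 to 0.239. Such small correlations cannot exclude shared mice, and the main fit treated the libraries as unpaired.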
